A study of Homo sapiens with 13 samples.

Results

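The AP-1 transcription factor genes were followed by chromatin accessibility in T98G, an established line of human glioblastoma, with cells held in G1 or in M-phase. The 10 genes are FOS, FOSB, FOSL1, FOSL2, JUN, JUNB, JUND, ATF3, BATF3 and MAFF. These genes were chosen with earlier results of these data known. Their peaks were then taken by position alone, as the ATAC-seq peaks of hg19 that overlap the body of a member gene or the 10 kb on either side of it. This gave 31 of the 129347 peaks of the deposited table. Of these, 10 lie over a transcription start site (TSS) of a member, 1 for each gene, 3 lie over the start of another gene inside a window, and 18 overlap no TSS and are called flanking peaks here. Each phase has 3 libraries of unmodified T98G cells. The G1 cells were starved of serum for 72 h. The M-phase cells were starved for 48 h and then released for 36 h into medium with serum and nocodazole, a microtubule poison that arrests cells in mitosis, and the rounded mitotic cells were shaken off. The return of serum came with the phase, and so did the sequencing platform, since G1 libraries were run on a HiSeq and each M-phase replicate on a HiSeq and a NextSeq. Serum, nocodazole and platform cannot be told apart from the phase in the values below. This matters here because several of these genes are textbook serum-response genes. T98G is a single line, and the labels do not say whether the 3 replicates come from separate cultures, so that the p-values measure the spread between these libraries.

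AP-1 is a dimer of basic leucine zipper (bZIP) proteins that binds a short palindromic DNA site. JUN proteins (JUN, JUNB and JUND) can pair with each other, whereas FOS proteins (FOS, FOSB, FOSL1 and FOSL2) need a JUN partner, and ATF3, BATF3 and the small MAF protein MAFF pair with some of the same bZIP proteins. FOS, FOSB, JUNB, JUN and ATF3 are immediate-early genes, which growth factors, serum or stress switch on within minutes through MAP kinases that act on factors already bound at the promoter. In glioblastoma, FOS and JUN family members, FOSL1 among them, are known for their link to a mesenchymal state.

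The sequences of a few promoters show what these accessible sites hold. The first set gives the 250 bases before the start for the immediate-early members whose RefSeq promoter has a TATA box directly upstream of the start. They were taken from RefSeq and matched exactly to GRCh37, the assembly of hg19, at chr14:75745281-75745530, chr19:45971004-45971253 and chr19:12902050-12902299, all on the plus strand. Capitals mark the TATA box consensus TATAAA and, in JUNB, also the forkhead consensus TGTTTAC.
FOS promoter: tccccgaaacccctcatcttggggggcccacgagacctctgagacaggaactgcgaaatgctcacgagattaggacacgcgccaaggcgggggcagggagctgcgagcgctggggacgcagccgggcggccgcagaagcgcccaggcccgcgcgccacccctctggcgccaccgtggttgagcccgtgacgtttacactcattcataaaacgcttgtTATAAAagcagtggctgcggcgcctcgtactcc
FOSB promoter: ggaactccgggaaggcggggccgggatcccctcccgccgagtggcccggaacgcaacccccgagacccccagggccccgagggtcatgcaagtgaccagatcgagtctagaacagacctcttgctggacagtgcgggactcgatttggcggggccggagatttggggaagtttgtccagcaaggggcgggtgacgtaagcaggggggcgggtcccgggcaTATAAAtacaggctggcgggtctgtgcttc
JUNB promoter: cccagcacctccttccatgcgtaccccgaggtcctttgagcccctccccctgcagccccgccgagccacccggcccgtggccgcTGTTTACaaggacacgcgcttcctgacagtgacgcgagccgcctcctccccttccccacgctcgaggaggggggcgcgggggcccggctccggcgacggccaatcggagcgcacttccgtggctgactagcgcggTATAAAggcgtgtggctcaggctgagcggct

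The second set gives consensus sites that lie inside a member TSS peak, with 30 bases on each side, on the plus strand of GRCh37. The CArG box, which is bound by serum response factor (SRF), was present at chr14:75745217-75745226 in the FOS peak and at chr19:45970980-45970989 in the FOSB peak, each upstream of the start. The CRE, TGACGTCA, is bound by dimers of ATF, CREB and JUN proteins, and the JUND and MAFF peaks hold it at chr19:18392625-18392632 and chr22:38597947-38597954. Capitals mark the site.
FOS CArG box: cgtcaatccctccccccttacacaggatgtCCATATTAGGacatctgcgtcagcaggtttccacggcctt
FOSB CArG box: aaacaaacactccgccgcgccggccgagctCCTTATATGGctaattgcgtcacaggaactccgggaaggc
JUND CRE: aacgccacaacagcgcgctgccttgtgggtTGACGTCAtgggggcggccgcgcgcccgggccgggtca
MAFF CRE: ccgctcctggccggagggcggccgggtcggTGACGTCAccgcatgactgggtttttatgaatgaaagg

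In ATAC-seq a transposase cuts accessible DNA and tags the ends for sequencing, so the reads in a peak measure how open it is. The unit throughout is the scaled count, the reads of a peak after the authors had scaled every library down to the smallest one. Summed over peaks, the G1 libraries hold 4191845 to 5092426 scaled counts and the M-phase libraries 5475345 to 6000423. Changes are M-phase over G1 on the log2(scaled count + 8) scale, which understates changes of low peaks, and come with the standard error (SE) and the Benjamini-Hochberg adjusted p of limma, taken over the 73121 peaks left after low ones were filtered out. A peak is called higher or lower at an adjusted p under 0.05. Of the markers of a glioma line, VIM, CD44 and OLIG2 have an accessible TSS peak, SOX2 has a weak one (mean scaled counts of 11.6 in G1 and 7.70 in M-phase), and NES and GFAP have none. No TSS peak was present at the blood genes PTPRC and CD3E or the liver gene ALB, whereas the epithelial genes EPCAM and KRT8 have peaks with mean scaled counts of 91.6 to 110, with no difference between phases called at either.

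Of the 10 TSS peaks of the AP-1 genes, 9 were higher in M-phase, 0 were lower and BATF3 was not called, with the libraries scaled as deposited. Over all TSS peaks tested, 43.2% were higher and 5.94% lower. The median log2 change of the 10 was 1.35, against 0.39 for all TSS peaks, 0.61 for TSS peaks with a mean scaled count over 100, and 0.02 for all peaks. In the 9 called genes every M-phase library lay above every G1 library, an order that 48.5% of all TSS peaks tested share, against 8.7% for the opposite order. After a trended loess scaling that removes any dependence of the change on abundance, JUN and ATF3 no longer kept this direction, as described below.

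In the FOS family, the FOSL1 and FOSB promoters showed the largest changes as deposited and the FOS promoter the smallest. With trended loess the smallest was that of FOSL2 (0.37), and FOS (0.55) was close to FOSB (0.56). FOS, the founding member, spans chr14:75745529-75748933, and its TSS peak at chr14:75744906-75746217 held 108.4, 90.6 and 122 scaled counts in G1 replicates 1, 2 and 3, and 215.5, 220.4 and 187.7 in M-phase replicates 1, 2 and 3. The phases did not overlap, and the mean rose 1.94-fold, from 107 ± 15.8 to 208 ± 17.6 (SD, n = 3 each), a log2 change of 0.91 (SE 0.20, adjusted p = 0.00013). FOSB, a close relative that serum induces together with FOS, spans chr19:45971253-45978437, and its TSS peak at chr19:45970831-45974011 held 462.3, 382.8 and 452 in G1 and 1167.5, 1393.1 and 1489.3 in M-phase. This is the broadest TSS peak of the 10, with 3181 bp, and its mean rose 3.12-fold, a log2 change of 1.62 (SE 0.15, adjusted p = 5.4e-15). FOSL1, which encodes FRA-1, spans chr11:65659520-65668044 on the minus strand. Its TSS peak at chr11:65666609-65668284 held 275.4, 181.3 and 269 in G1 and 725.9, 829.8 and 877.7 in M-phase. The FOSL1 change of 1.73 (SE 0.17, adjusted p = 2.5e-14) was the largest of the 10 TSS peaks as deposited, and G1 replicate 2 was its lowest library. FOSL2, which encodes FRA-2, spans chr2:28615315-28640184. Its TSS peak at chr2:28614360-28616535 held 303.2, 295.3 and 387 in G1 and 755.5, 778.7 and 822.3 in M-phase, a log2 change of 1.25 (SE 0.16, adjusted p = 8.8e-10). As deposited, the 4 FOS family promoters were therefore all higher in M-phase, each by more than the spread between its libraries. Differences in change between genes were not tested.

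As deposited, the JUN family split into JUNB and JUND, with changes near 1.5, and JUN, with a smaller one. JUN, the partner shared by all FOS proteins, spans chr1:59242517-59249720 on the minus strand. Its TSS peak at chr1:59248051-59251102 also covers the start of the divergent long non-coding gene LINC01135 and of a transcript without a symbol, and its reads cannot be assigned to one of them. It held 952.4, 718 and 913 in G1 and 1425.4, 1571.1 and 1692.3 in M-phase. This is the highest count of the 10 in both phases, and the change was 0.86 (SE 0.14, adjusted p = 9.8e-07). JUNB, a JUN protein with weaker transactivation, spans chr19:12902300-12904129, and its TSS peak at chr19:12902090-12903595, which also covers a TSS of HOOK2, held 220.7, 191.4 and 219 in G1 and 547.5, 602.4 and 628.9 in M-phase. JUNB rose 2.82-fold, a log2 change of 1.46 (SE 0.17, adjusted p = 2.2e-11). JUND, the member known for broad and steady expression, spans chr19:18390504-18392432 on the minus strand. Its TSS peak at chr19:18390783-18393009, which also covers MIR3188, held 526.9, 471.1 and 535 in G1 and 1345.9, 1548.4 and 1612.9 in M-phase. The change of JUND was 1.54 (SE 0.15, adjusted p = 1.5e-14), close in size to that of FOSB. JUND is usually not counted among the immediate-early genes. Its change was 0.41 with trended loess, and a link between that class and the size of the change was not tested.

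The members outside these families differed from one another. ATF3, a stress-induced repressor, spans chr1:212738676-212794119, but its only TSS peak lies at an internal start, at chr1:212781515-212783326. That peak held 574.6, 403.1 and 575 in G1 and 828.4, 939 and 940.2 in M-phase, a log2 change of 0.81 (SE 0.16, adjusted p = 2.1e-05). The first annotated start of ATF3 and both of its RefSeq promoter windows had 0 bases in a peak. BATF3, known as a factor of dendritic cells, spans chr1:212859759-212873182 on the minus strand, and its TSS peak at chr1:212872456-212874468 held 300.2, 185.2 and 267 in G1 and 224.1, 190.8 and 251.7 in M-phase. The BATF3 libraries of the phases overlapped, and the change of -0.15 (SE 0.19, adjusted p = 0.61) has a 95% confidence interval of -0.51 to 0.21, which lies below the change of every other member TSS peak. MAFF, a small MAF protein without a transactivation domain, spans chr22:38596774-38612514. Its TSS peak at chr22:38597613-38599080 held 176, 163.3 and 128 in G1 and 450.7, 514.2 and 496.1 in M-phase, a log2 change of 1.61 (SE 0.18, adjusted p = 4.6e-12). BATF3 is thus the only one of the 10 promoters with overlapping phases.

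**Figure D1:**
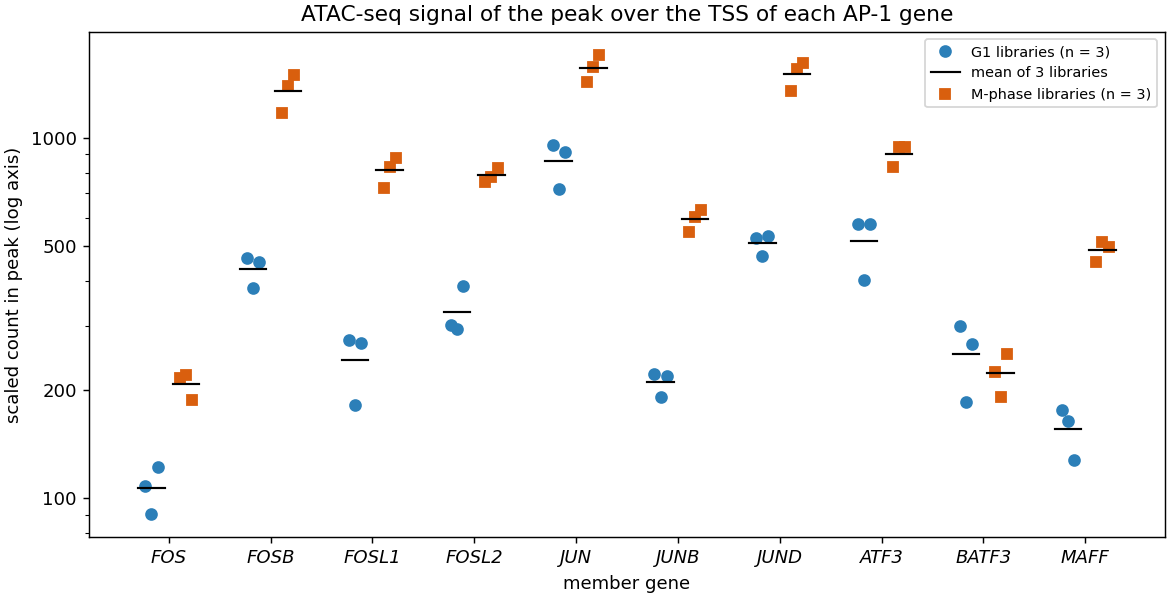
The scaled count (log axis) of the TSS peak of each AP-1 gene is plotted for every library, with G1 as circles, M-phase as squares and the mean of 3 libraries as a line. The M-phase squares lie above the G1 circles at every gene but BATF3, in values scaled as deposited. With trended loess the changes of JUN and ATF3 turn negative.

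The direction at JUN and ATF3 and the call at BATF3 depend on how the libraries are scaled. Trended loess gave JUN a change of -0.39 (adjusted p = 2.4e-05) and ATF3 one of -0.20 (adjusted p = 0.094). BATF3, negative under every scaling, went to -0.70 (adjusted p = 0.00013) with trended loess and to -0.49 (adjusted p = 0.0077) with equal totals in peaks, and was then called lower. The other 7 TSS peaks were higher under every scaling tried, with trended loess values of 0.37 for FOSL2, 0.41 for JUND, 0.55 for FOS, 0.56 for FOSB, 0.74 for JUNB, 0.91 for FOSL1 and 0.99 for MAFF. The background moved too, and with trended loess 21.1% of all TSS peaks were higher and 17.2% lower, around a median of 0.06, and with equal totals 29.3% and 17.2%. The order of the genes changed as well, since FOSB and JUND stood above JUNB as deposited and below it with trended loess. Equal totals in peaks moved the median of all peaks to -0.24, a shift in which all peaks take part.

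**Figure D2:**
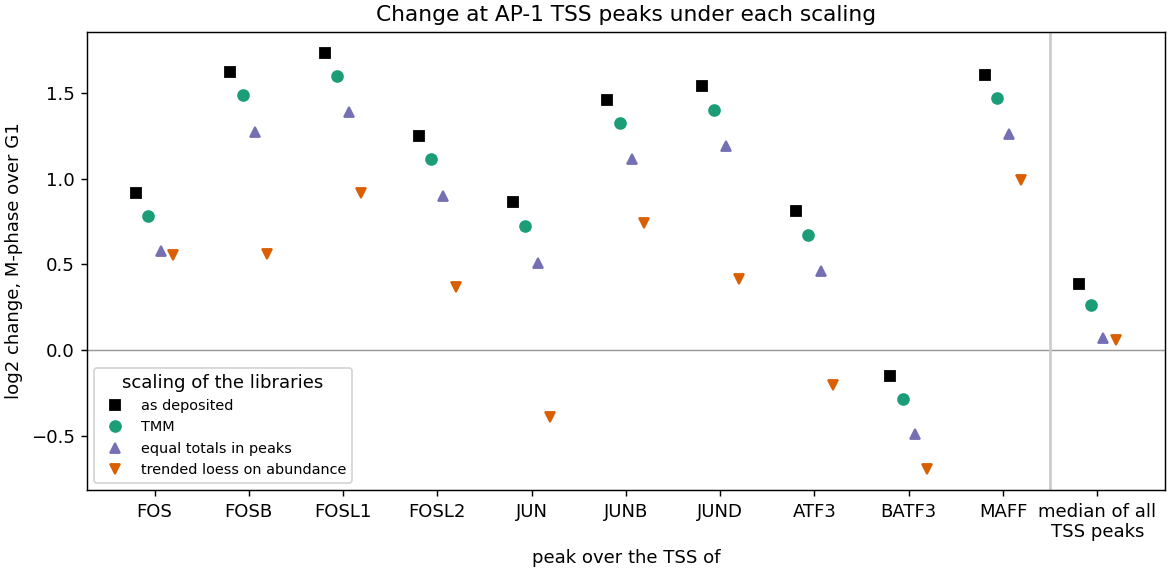
The log2 change of each AP-1 TSS peak is plotted under 4 scalings of the libraries, with the median of all TSS peaks at the right. Trended loess turns JUN to -0.39 and ATF3 to -0.20, while FOS, FOSB, FOSL1, FOSL2, JUNB, JUND and MAFF stay above 0 under all 4.

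Per kb of peak, the TSS peaks could be ordered by level within each phase. In G1, ATF3 (286 ± 54.7 scaled counts per kb, SD, n = 3), JUN (282 ± 41.1) and JUND (229 ± 15.6) stood first, and JUND was apart from the next, FOSL2 (151 ± 23.4), in all libraries. From FOSL2 down to FOS (81.6 ± 12.0) each neighbour overlapped the next. In M-phase, JUND was first with 675 ± 62.6 and apart from JUN with 512 ± 43.8. JUN, ATF3, FOSL1, FOSB, JUNB, FOSL2 and MAFF then followed with each neighbour overlapping the next, down to 332 ± 22.3 at MAFF. MAFF was apart from FOS (158 ± 13.4), and FOS from BATF3, which was last with 110 ± 15.1. FOS, the best-known immediate-early gene, had the lowest mean per kb in G1, where its libraries overlapped those of MAFF. In M-phase it was the last but one. The copy number of these loci in T98G was not tested, and peak borders are those of the authors' caller.

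Around the starts the changes were smaller in most windows as deposited, but not with trended loess. Of the 18 flanking peaks, 17 were tested, 8 were higher in M-phase and 0 lower, with a median log2 change of 0.39. With equal totals 4 were higher and 1 lower, while 6341 of all 73121 tested peaks were higher and 18090 lower. The shares outside TSSs are not given here for that scaling. Among all peaks outside TSSs as deposited, 6.51% were higher and 15% lower, with a median of -0.05. That background is weaker and narrower. Its median signal before filtering was 9.42 scaled counts and its median width 221 bp, against 74.6 and 681 bp for the flanking peaks. In CpG islands, 3 of 7 tested flanking peaks were higher, against 12.7% of all such peaks outside TSSs. Outside islands 5 of 10 were higher, against 6.14%. A background matched for signal was not tested. All M-phase libraries lay above all G1 libraries at 9 of the 17 and below them at 1, against 12.0% and 21.3% of all tested peaks outside TSSs. As deposited, of the 8 genes with a tested flanking peak, 6 had a larger change at their own start than at any flanking peak, and 15 of the 17 flanking peaks changed less than the start they surround. The exceptions were 1 peak at FOSL1 and 1 at JUNB. With trended loess this contrast was lost, since the own start was above every flanking peak in 3 genes, FOS, JUN and MAFF, and 7 of the 17 flanking peaks changed less than their start.

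The peak upstream of FOSL1 showed the largest change of all 31. Its centre lies at -3.40 kb from that of the FOSL1 TSS peak, upstream at chr11:65670626-65671059, outside any annotated gene and any CpG island, and is 434 bp wide. It held 10.9, 30.5 and 35 in G1 and 140.9, 142.6 and 126.6 in M-phase. The mean rose 5.37-fold, from 25.5 ± 12.8 to 137 ± 8.79 (SD, n = 3 each), a log2 change of 2.20 (SE 0.24, adjusted p = 6.9e-12), and 0.0278% of the tested peaks outside TSSs had a larger one. Trended loess left it at 2.21. The 200 bases at its centre, chr11:65670742-65670941 of GRCh37 on the plus strand, are shown because this peak differs most from the rest. Capitals mark a TEAD consensus, GGAATG, on the minus strand, and no AP-1 consensus is present anywhere in the peak.
FOSL1 upstream peak centre: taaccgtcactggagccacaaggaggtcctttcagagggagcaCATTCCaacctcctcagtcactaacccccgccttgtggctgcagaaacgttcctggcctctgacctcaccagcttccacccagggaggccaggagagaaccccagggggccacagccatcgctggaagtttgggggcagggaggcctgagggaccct

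The starts of other genes lie in the FOSL1 and FOSB windows, and all 3 of these peaks rose. Over all TSS peaks tested 43.2% were higher, and 60.4% of those with a mean scaled count over 100, as these 3 have. In the FOSL1 window, the peaks over the TSS of CCDC85B at chr11:65657469-65658943 and of FIBP at chr11:65655388-65656950 changed by 1.95 (adjusted p = 7.3e-17) and 1.66 (adjusted p = 2.6e-14). CCDC85B went from 204.8, 182.8 and 205 in G1 to 737, 810.5 and 815.6 in M-phase. All 4 peaks of the FOSL1 window were therefore higher in M-phase, the FOSL1 promoter itself being the third in size. In the FOSB window, the TSS peak of the DNA repair gene ERCC1 at chr19:45981171-45982542 held 114.3, 116.4 and 73 in G1 and 258.3, 302.4 and 341.2 in M-phase, a log2 change of 1.52 (SE 0.19, adjusted p = 9.1e-10).

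At JUNB, 3 of the 3 flanking peaks tested were higher, and all lie in introns of HOOK2 transcripts and in a CpG island. Of all tested peaks outside TSSs and in a CpG island, 12.7% were higher. The downstream peak at chr19:12904257-12905000 held 141.2, 84.4 and 122 in G1 and 335.7, 386.9 and 447 in M-phase, a log2 change of 1.70 (SE 0.19, adjusted p = 6.2e-12). Its change was larger than that at the JUNB start. The upstream peak at chr19:12900299-12901200 changed by 0.69 (adjusted p = 0.0014), which became 0.08 (adjusted p = 0.70) with trended loess. The upstream peak at chr19:12893433-12894100, centred at -9.08 kb from the TSS peak, held 90.5, 64.8 and 87 in G1 and 132.2, 161.1 and 137.6 in M-phase, a log2 change of 0.78 (SE 0.21, adjusted p = 0.0023). It is shown because it holds 3 copies of the AP-1 consensus within 161 bases, at chr19:12893841-12894001 of GRCh37, plus strand, with the copies in capitals. The remaining JUNB flanking peak was too low to be tested, with mean scaled counts of 8.90 in G1 and 5.37 in M-phase.
JUNB upstream AP-1 sites: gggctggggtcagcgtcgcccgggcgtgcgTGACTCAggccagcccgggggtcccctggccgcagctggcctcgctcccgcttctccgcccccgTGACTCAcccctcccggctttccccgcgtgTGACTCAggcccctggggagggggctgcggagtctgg

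In the other windows, flanking peaks changed by less than 1 on the log2 scale. At FOSL2, a peak in an exon at chr2:28631630-28632497 held 86.5, 77.3 and 91 in G1 and 117, 136 and 171.8 in M-phase, a log2 change of 0.67 (adjusted p = 0.0093). A narrow intronic peak at chr2:28629676-28629795 changed by 0.79 (SE 0.30, adjusted p = 0.035) with overlapping libraries, and the peak just upstream of the start, at chr2:28613228-28614031, by 0.28 (adjusted p = 0.34). Without M-phase replicate 3 both called FOSL2 flanking peaks lost their calls, at 0.53 for the exonic and 0.55 for the intronic one, and the intronic one lost it also without G1 replicate 1 (0.63) or G1 replicate 2 (0.67). Downstream of JUND, chr19:18385367-18386008 changed by 0.75 (adjusted p = 0.0073), and downstream of MAFF, chr22:38614524-38615095 by 0.74 (adjusted p = 0.0079). At both peaks every M-phase library lay above every G1 library, but neither call held in all fits that leave out 1 library. That of JUND was lost without M-phase replicate 3 (0.66), and that of MAFF without G1 replicate 1 (0.61) or M-phase replicate 2 (0.62). With equal totals neither was called (0.44, adjusted p = 0.10 at JUND and 0.42, adjusted p = 0.11 at MAFF), nor were the exonic (0.34, adjusted p = 0.14) and intronic (0.57, adjusted p = 0.13) peaks of FOSL2. The intronic FOSL2 peak also lost its call with TMM, a scaling by trimmed mean ratios (adjusted p = 0.056), and the exonic one with trended loess (adjusted p = 0.069). The highest flanking peak of JUND, upstream at chr19:18402352-18403556, had a log2 change of 0.39 (adjusted p = 0.15).

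FOS, JUN and ATF3 had no called flanking peak. The peak upstream of FOS, at chr14:75743783-75744504 and centred at -1.42 kb from the TSS peak, held 51.7, 62.5 and 75 in G1 and 74.2, 93.9 and 75.1 in M-phase, and its change of 0.33 (SE 0.23, adjusted p = 0.30) has a 95% confidence interval of -0.11 to 0.77. Downstream of JUN, a narrow peak at chr1:59239191-59239316 held 18.9, 15.6 and 21 in G1 and 7.40, 11.1 and 14.4 in M-phase. There, each M-phase library lay below each G1 library, with a log2 change of -0.49 (SE 0.29, adjusted p = 0.21), which was called lower with equal totals (-0.72, adjusted p = 0.045). ATF3, the longest gene of the 10, has 5 flanking peaks with changes of -0.05 to 0.38, the highest of them at chr1:212731968-212732661 with 0.38 (adjusted p = 0.21). As deposited, the internal start was the one called peak of ATF3, whereas with trended loess its -0.20 lay below all 5 flanking peaks (-0.08 to 0.27) and none of the 6 was called. BATF3 has no flanking peak in its window.

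**Figure D3:**
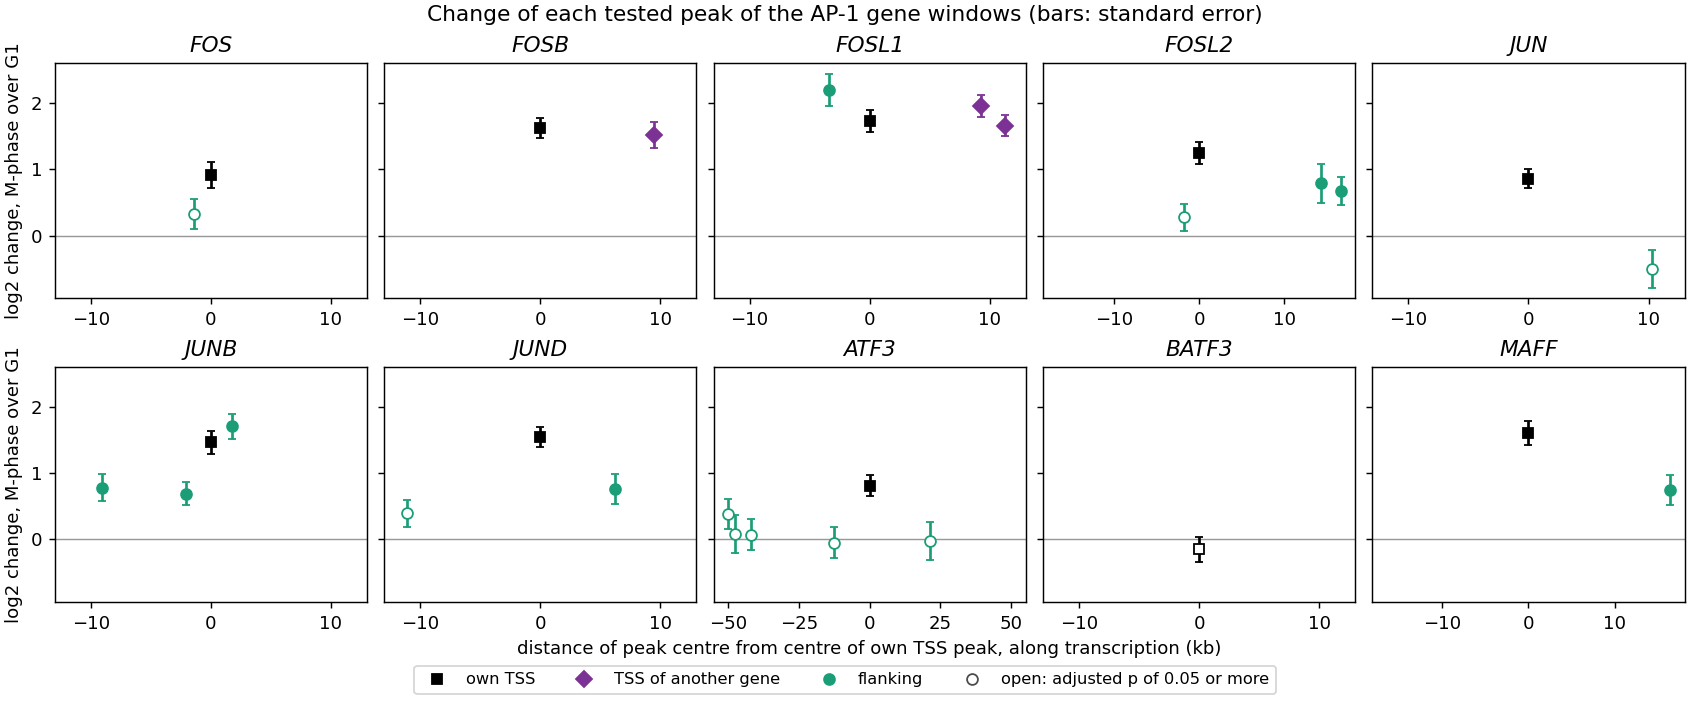
The log2 change with its standard error is plotted for each tested peak against the distance of its centre from the centre of the member's TSS peak, with upstream to the left. Filled symbols passed an adjusted p of 0.05 as deposited, and the TSS squares stand above the flanking circles except for 1 circle at FOSL1 and 1 at JUNB. With trended loess the squares of JUN and ATF3 fall below 0, and 10 of the 17 flanking peaks lie above their start.

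The TSS peaks of the AP-1 genes also share features that did not enter their choice. All 10 overlap a CpG island, as do 76.6% of all TSS peaks, and 8 of the 18 flanking peaks do, against 3.95% of all peaks outside TSSs. Their median width is 1912.5 bp, against 1152 bp for all TSS peaks, and their median signal is 542 scaled counts (mean over the 6 libraries), against 143. They are thus broad, strong, CpG-rich promoters, a class in which rises were common, since 60.4% of the TSS peaks with a mean scaled count over 100 were higher in M-phase.

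Consensus sites with fixed letters were looked for on either strand. In the 200 bases at the centre of the 10 TSS peaks, 0 held the AP-1 consensus TGANTCA (4.72% of all TSS peaks), the CRE (0.967%) or the CArG box (0.502%). Over the whole peaks, 3 of 10 held the AP-1 consensus, at FOSB, FOSL1 and FOSL2 (21.0% of all TSS peaks), 3 the CRE, at FOSB, JUND and MAFF (4.13%), and 2 the CArG box, at FOS and FOSB (3.81%). TATAAA was found in 7 of 10 whole peaks (17.6%). Member peaks are wider than most, which raises the chance of any site in them. In windows of equal length, the RefSeq promoters with 250 bases before and 50 after the start, 8 of the 10 members have an entry, with 10 promoters in all. There TATAAA begins at -33 in FOS, -30 in FOSB, -31 in JUNB and -230 in an ATF3 promoter without a peak, and is in 11.5% of all 35116 promoters. The CRE begins at -200 in JUND and -54 in MAFF (1.85% of all promoters), and the AP-1 consensus begins 4 bases after the start in FOSL2 (7.71%). The TATA promoters of FOS, FOSB and JUNB thus belong to genes with changes from 0.91 to 1.62.

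Among flanking peaks the AP-1 consensus was found in 9 of 18 whole peaks (18.3% of all peaks outside TSSs) and in 3 of 18 centres (12.9%). The whole peaks are of unlike length, with median widths of 681 bp and 221 bp, whereas the centres are of equal length. Of the 9 whole peaks with the consensus, the 4 at FOSL2, JUNB and JUND were higher in M-phase and the 5 at ATF3 were not called. The FOSL1 upstream peak and the JUNB downstream peak, with the largest changes, hold none. A consensus match is a description of the letters and shows no binding.

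The genes that work with AP-1 were read at the highest TSS peak of each, as deposited. Over all protein-coding genes, 52.6% were higher and 4.26% lower, with a median of 0.52. Of 23 other bZIP genes, 22 have a TSS peak, 14 were higher and 1 lower, with a median log2 change of 0.80. The largest changes were those of DDIT3, a stress factor known as CHOP (1.63, adjusted p = 5.1e-14, a peak shared with MBD6), of ATF4, the main factor of the integrated stress response (1.62, adjusted p = 2.6e-14), and of the small MAF gene MAFG (1.48, adjusted p = 4.2e-13). ATF4 went from 392.7, 290.6 and 354 in G1 to 1030.7, 1015.3 and 1174.1 in M-phase, values close to those of FOSB. NFE2, the erythroid partner of the small MAF proteins, was the lower one (-0.69, adjusted p = 0.048), at mean scaled counts of 36.8 and 19.9. That call is borderline, since 0 genes of the list were lower without the filter on low values, and 0 when any single library other than G1 replicate 2 was left out.

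All 18 kinases and activators upstream of AP-1 have a TSS peak, of which 16 were higher and 0 lower, with a median of 0.89. MAP3K1, a kinase that feeds the JNK pathway, changed by 1.61 (adjusted p = 1.2e-13), and MAP2K7, which activates JNK, by 1.44 (adjusted p = 3.8e-11). MAPK3, which encodes ERK1 (0.19, adjusted p = 0.52), and ELK1, an SRF cofactor (0.32, adjusted p = 0.21), were the uncalled ones. Among 10 feedback inhibitors of MAP kinase signalling, 9 have a TSS peak, 5 were higher and 0 lower, with a median of 0.55. The phosphatase genes DUSP5 (1.53, adjusted p = 2.1e-11), DUSP1 (1.45, adjusted p = 9.4e-14) and DUSP4 (1.27, adjusted p = 4.8e-10) led them. This list reversed with trended loess, where 3 were higher and 5 lower around a median of -0.47. Of all TSS peaks, 21.1% were then higher and 17.2% lower, around a median of 0.06.

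Of 20 textbook targets of AP-1, 14 have a TSS peak, 8 were higher and 0 lower, with a median of 0.76. PLAUR, the urokinase receptor, changed by 1.37 (adjusted p = 7.0e-10), its ligand PLAU, the urokinase itself, by 1.28 (adjusted p = 2.7e-07), and EDN1, which encodes endothelin, by 1.28 (adjusted p = 7.1e-07). No TSS peak was found for the matrix metalloproteinase genes MMP1, MMP3, MMP9 and MMP10, nor for SPP1 and LIF. With trended loess 7 of the other bZIP genes were higher and 6 lower, and 6 of the upstream genes were higher and 0 lower. Under that scaling 21.1% of all TSS peaks were higher and 17.2% lower, around a median of 0.06. The medians were then 0.15 for the other bZIP genes, 0.24 for the upstream genes and 0.35 for the targets, and 0.48 for the AP-1 genes themselves.

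**Figure D4:**
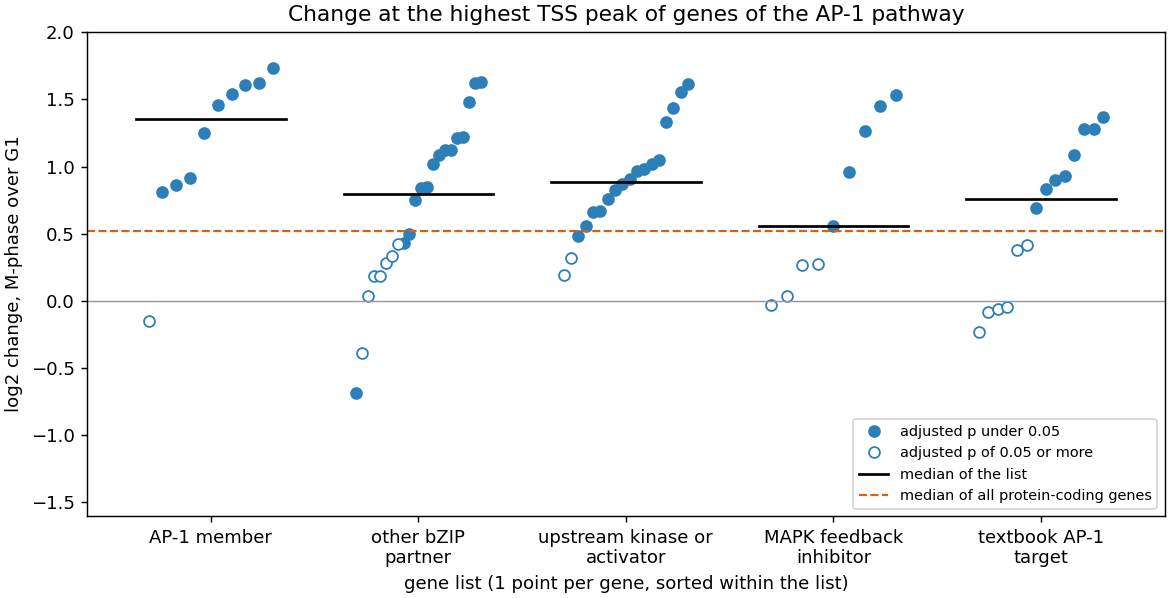
The log2 change at the highest TSS peak of each gene is plotted by list, sorted within a list, with the list's median as a line and the median of all protein-coding genes, 0.52, dashed. As deposited the AP-1 genes have the highest median, 1.35, and the feedback inhibitors the lowest, 0.55, which turns to -0.47 with trended loess.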

How the data were processed

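ATAC-seq values of T98G cells were analysed for 3 G1 and 3 M-phase columns; the chromatin fraction and input samples were not analysed here. As the study's methods state, the authors removed adapters (cutadapt), mapped reads to hg19 (Rbowtie in QuasR), keeping 1 location for reads with up to 3, so that near-identical sequences share reads, removed mitochondrial reads (samtools), and called broad peaks on merged replicates (macs2). Versions and any Tn5 shift are not given in the sources used here. The signal values that the authors deposited are read counts in peaks, scaled to the smallest library and rounded. Their columns of log2 change and its SD were not used. No per-sample column was left unused (0).

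Peaks were kept where 3 or more libraries reached 10, as scaled to the median library size, and the total reached 15 (73121 of 129347). limma 3.58.1 (R 4.3.3) was fitted to log2(scaled count + 8) with a mean-variance trend, without covariates, and was tested on simulated data. TSSs and genes are those of GENCODE lifted to GRCh37, and promoter sequences those of RefSeq. CpG islands were computed from the sequence. All members are named; other peaks of their windows are given by value where called or highest of the flanking peaks of a gene, and of each pathway list at most the 3 largest rises and falls. The markers, the lists and the members were chosen with earlier results of these data known. Some genes of these lists are not reported here by name. PECAM1, a marker of endothelium, was not assessed, as the annotation used here does not list it. The alternatives were other scalings, pseudocounts, filters, windows and TSS sets, the replicate block, each library left out, and motif search in whole peaks. Python 3.11.15, numpy 2.4.6, pandas 2.3.3 and matplotlib 3.10.9 were used. The depth limits precision at low peaks, and scaled counts allow no counting interval.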

Additional observations from a re-analysis of the deposited data

How the results depend on the processing

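Of 388 values of single member peaks under the alternatives, 369 kept their side of the threshold, 14 lost a call and 3 gained one. The other 2, JUN (-0.39) and ATF3 (-0.20) with trended loess, changed sign at a peak called as deposited. Sign changes at peaks that stayed uncalled count among the 369. An example is the peak just upstream of FOSL2, which went from 0.28 to -0.05 with equal totals. For the TSS peaks of the members, the number lower was 1 with equal totals and 2 with trended loess, and the median 1.01 and 0.48. For flanking peaks, equal totals gave 4 higher, 1 lower and a median of 0.058, a window of 5 kb gave a median of 0.67, and one of 50 kb gave 20 higher and 8 lower. Peaks over another TSS had medians of 1.52 with TMM, 1.31 with equal totals and 1.09 with trended loess. Within 50 kb 18 of 22 such peaks were higher, against 43.2% of all TSS peaks, with a median of 0.86. For other bZIP genes, the number lower was 2 with TMM, 2 with equal totals, 0 without the filter and 6 with trended loess, where 7 were higher, and the medians were 0.45 (equal totals) and 0.15 (trended loess). The upstream genes had medians of 0.54 and 0.24 under the same scalings, with 6 higher under trended loess. The feedback inhibitors had 0.20 with equal totals and reversed to -0.47 with trended loess, with 3 higher and 5 lower. The targets had medians of 0.43 and 0.35, with 1 lower in each. Of all TSS peaks, 29.3% were higher and 17.2% lower with equal totals, and 21.1% and 17.2% with trended loess. The cause of these shifts was not tested. Leaving out 1 library at a time gave 5 to 8 flanking peaks higher (5 without M-phase replicate 3), a median of 1.56 to 1.74 at other TSSs, 0 to 1 bZIP genes lower (0 without any library but G1 replicate 2), and a median of 0.43 to 0.71 for the feedback inhibitors. In those fits the TSS peaks of the members stayed at 9 higher and 0 lower, and 4 flanking peaks lost a call in at least 1 fit. Same-numbered replicates did not deviate together (r of 0.01, -0.01 and 0.03), and with the number as a replicate block 9 TSS peaks of the members were higher. Over all peaks, TMM gave 8876 higher and 12624 lower, equal totals 6341 and 18090, trended loess 7563 and 10474, and the block 10881 and 10063, against 10439 and 9548 as deposited. The planned count model was not run, since whole reads could not be recovered from the values of 2 M-phase libraries within the tolerance required. Low peaks are limited by depth, as in the narrow peaks at FOSL2 and JUN.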
